A study of Mus musculus with 74 samples.

Results

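H3K9me3 peaks of donor cumulus cells (CC) were compared with those of somatic cell nuclear transfer (SCNT) embryos at 6 h post activation (hpa), gene by gene and in 1-kb windows of the 19 autosomes. The comparison was chosen by stage, with every autosomal peak of both lists included, and it rests on 9 of the 74 libraries of the series, 4 precipitated from CC and 5 from embryos at 6 hpa. Each group was deposited as 1 pooled peak list, so 2 of the 10 lists were compared. The series follows H3K9me3 in mouse SCNT embryos from the donor cell to the blastocyst by ultra-low-input native ChIP-seq, in which micrococcal nuclease cuts chromatin that has not been crosslinked. Donor cells and oocytes came from superovulated B6D2F1 females (C57BL/6j mothers and DBA/2 fathers) aged 8 to 10 weeks. CC were freed from the cumulus-oocyte complexes with hyaluronidase and used directly. For SCNT, a CC nucleus was injected into an enucleated metaphase II oocyte, which stayed in culture for 1 h and was then activated for 6 h with strontium chloride and cytochalasin B in calcium-free medium. The CC list therefore describes a population of somatic cells, whereas the 6 hpa list describes single donor nuclei in oocyte cytoplasm, pooled over many embryos. To follow the same positions, 3 further lists were used, namely SCNT embryos at 14 hpa and the 2-cell stage and fertilized zygotes at pronuclear stage 5 (PN5), and the PN5 zygotes came from a C57BL/6 cross in an earlier study.

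Trimethylation of lysine 9 on histone H3 is laid down by enzymes such as SUV39H1, SUV39H2 and SETDB1 and is bound by HP1 proteins, which compact the chromatin. In somatic cells it covers satellite repeats, transposable elements and large clusters of related genes, among them the zinc finger and chemosensory receptor genes, and it keeps genes of other lineages silent. A transferred nucleus brings this pattern into the oocyte, and the question addressed by the comparison is which genes lose or gain the mark within the hours between activation and 6 hpa.

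CC peaks covered 212.4 Mb, 8.87% of the assembled autosomal sequence, and 6 hpa peaks covered 138.4 Mb (5.78%), a ratio of 0.651. The authors' median fold enrichment over input was close in both lists, 2.72 in CC and 2.73 at 6 hpa. The lowest −log10 q of a peak was 1.52 in CC and 1.31 at 6 hpa, and the medians were 2.54 and 2.31. The 6 hpa list thus reached down to peaks of lower significance. Peaks of at least 5 kb held 34.6% of the covered bases in CC and 10.9% at 6 hpa. Since 1 pooled list exists for each group, no spread between replicates could be computed and no test was run. Below, a promoter (1 kb on each side of the annotated gene start) or gene body was called lost when peaks covered at least 50% of it in CC and at most 10% at 6 hpa, gained in the opposite case and kept when peaks covered at least 50% in both. A region without a peak gave no signal above the caller's threshold, which does not mean that the mark was absent.

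Among 20807 autosomal protein-coding genes, 246 promoters were called lost (1.18%; Wilson 95% interval 1.04 to 1.34%), 1021 gained (4.91%; 4.62 to 5.21%) and 296 kept (1.42%; 1.27 to 1.59%). The 3 classes differed in sequence. A lost promoter had a median of 4 CpG dinucleotides, a kept one 9 and a gained one 72, against 43 over all promoters. The difference is visible in the following stretches of 300 bases, centred on the annotated gene start and printed from the mm10 (GRCm38) assembly along the strand of the gene, with every CpG in capitals. Cdh22, which encodes a cadherin, and Nefh, which encodes the heavy neurofilament subunit, had no CC peak at the promoter and a 6 hpa peak over all of it. The 6 genes shown were chosen after their values were seen, to show each class.

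Cdh22, chr2:165234703-165235002, minus strand: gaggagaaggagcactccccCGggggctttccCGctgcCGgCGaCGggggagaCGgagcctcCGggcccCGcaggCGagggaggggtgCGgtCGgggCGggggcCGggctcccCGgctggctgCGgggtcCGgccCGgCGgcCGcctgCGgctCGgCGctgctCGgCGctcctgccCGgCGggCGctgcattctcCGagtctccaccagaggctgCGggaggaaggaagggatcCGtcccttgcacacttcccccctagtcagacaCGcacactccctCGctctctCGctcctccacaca
Nefh, chr11:4947914-4948213, minus strand: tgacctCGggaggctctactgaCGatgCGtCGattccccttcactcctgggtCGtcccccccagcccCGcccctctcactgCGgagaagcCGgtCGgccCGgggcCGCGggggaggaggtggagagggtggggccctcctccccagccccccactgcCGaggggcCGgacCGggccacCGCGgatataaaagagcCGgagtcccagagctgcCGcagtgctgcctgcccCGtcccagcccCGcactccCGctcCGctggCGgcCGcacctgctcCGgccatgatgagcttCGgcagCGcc

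Zscan4e, a gene of a family transcribed at the 2-cell stage, and Vmn1r72, a vomeronasal receptor gene, had the whole promoter under a CC peak and were called lost.

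Zscan4e, chr7:11310532-11310831, minus strand: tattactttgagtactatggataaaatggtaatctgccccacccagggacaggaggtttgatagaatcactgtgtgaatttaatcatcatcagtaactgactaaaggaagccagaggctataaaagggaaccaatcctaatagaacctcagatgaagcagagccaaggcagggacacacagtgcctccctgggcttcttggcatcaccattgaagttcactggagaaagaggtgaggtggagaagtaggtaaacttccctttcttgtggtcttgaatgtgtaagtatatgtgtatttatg
Vmn1r72, chr7:11679997-11680296, minus strand: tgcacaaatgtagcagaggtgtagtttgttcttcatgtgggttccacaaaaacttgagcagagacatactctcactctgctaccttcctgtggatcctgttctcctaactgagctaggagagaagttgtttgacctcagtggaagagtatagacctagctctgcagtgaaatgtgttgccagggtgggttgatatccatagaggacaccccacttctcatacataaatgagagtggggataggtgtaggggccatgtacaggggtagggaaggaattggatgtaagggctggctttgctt

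Duxf3, a member of the Dux family of transcription factors that act at the 2-cell stage, and Obox2, an oocyte homeobox gene, had the whole promoter under a peak in both lists. The Duxf3 promoter was also covered to 100% in the 14 hpa, 2-cell and fertilized PN5 lists. That of Obox2 had 100%, 65.2% and 0% in these 3 lists.

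Duxf3, chr10:58232525-58232824, minus strand: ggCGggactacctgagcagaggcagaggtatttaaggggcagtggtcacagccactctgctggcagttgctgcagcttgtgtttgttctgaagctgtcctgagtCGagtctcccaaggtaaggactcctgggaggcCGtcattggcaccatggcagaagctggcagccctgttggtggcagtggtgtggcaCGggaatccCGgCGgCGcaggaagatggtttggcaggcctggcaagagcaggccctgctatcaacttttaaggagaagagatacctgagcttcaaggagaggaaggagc
Obox2, chr7:15388571-15388870, plus strand: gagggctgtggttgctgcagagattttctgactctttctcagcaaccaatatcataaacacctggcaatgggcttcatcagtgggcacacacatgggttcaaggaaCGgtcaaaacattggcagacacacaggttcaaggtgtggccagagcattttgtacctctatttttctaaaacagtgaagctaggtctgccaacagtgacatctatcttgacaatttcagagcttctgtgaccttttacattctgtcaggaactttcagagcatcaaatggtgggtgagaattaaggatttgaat

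The gained stretches held 33 CpG (Cdh22) and 28 (Nefh) at a GC content of 75% and 73.3%. The lost stretches held 0 in either gene at 43.0% (Zscan4e) and 47.3% (Vmn1r72). The kept stretch of Duxf3 held 7 and that of Obox2 held 1. Zscan4, Obox, Dux and vomeronasal genes have close copies nearby, so reads may have been placed on a relative, and values of single members of such families are uncertain.

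Clusters of related genes mostly had less cover at 6 hpa than in CC. Autosomal members of gene families were joined into 137 clusters of at least 4 genes lying at most 500 kb apart, and a cluster was called losing or gaining when its covered share differed by at least 5 percentage points. By this rule 81 clusters lost coverage (59.1%) and 6 gained it (4.38%), against 15.8% and 1.83% of 2403 autosomal 1-Mb bins. The 59 clusters with at least 20% CC cover were selected on high CC values. Cover was lower at 6 hpa in 59 of them, at a median ratio of 0.393 (range 0.127 to 0.836), and in 233 of 247 1-Mb bins selected in the same way, at a median ratio of 0.432. Picking on CC cover favours a lower value at 6 hpa, and nothing particular to the clusters is read from these counts. When the CC list was trimmed to the covered length of the 6 hpa list by dropping peaks of lowest −log10 q, 54 of the 59 were still lower.

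**Figure D1:**
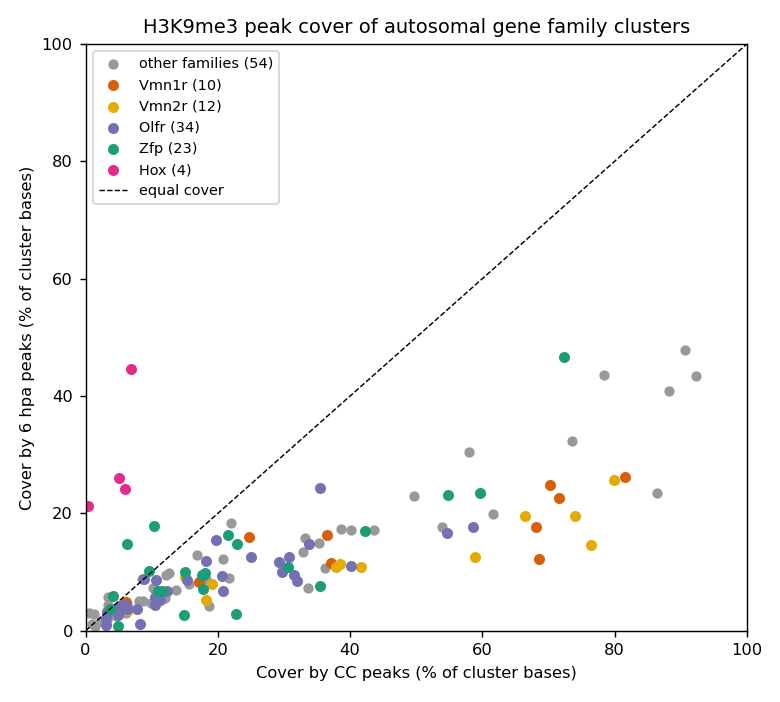
Each point is 1 of 137 autosomal clusters of a gene family, placed by the share of its bases under CC peaks (x axis, %) and under 6 hpa peaks (y axis, %), with colours for the named families and a dashed line of equal cover. Vomeronasal, olfactory and zinc finger clusters with at least 20% CC cover lie under the line, and the 4 Hox clusters lie above it.

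The largest drop was in a Ceacam cluster on chromosome 7 (Ceacam5 to Ceacam12, 5 genes over 364.7 kb), which encodes cell adhesion proteins of the immunoglobulin superfamily. Its cover of 86.4% in CC became 23.4% by 6 hpa, while SCNT embryos at 14 hpa had 44.7%, 2-cell embryos 12.8% and PN5 zygotes 3.79%. Within it the body of Ceacam11 had 100% and 21.6%. The nearby Psg cluster of pregnancy-specific glycoprotein genes kept more of its cover, 78.5% in CC and 43.7% at 6 hpa. Of 13 Psg gene bodies 10 were called kept (1.43% over all genes) and none lost (0.788%). At that share a list of this length would hold few lost bodies, so their absence is not read as a result. Psg18 had 100% and 93.3% and Psg21 had 91.9% and 92.2%.

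Vomeronasal receptor genes, which encode pheromone receptors of the vomeronasal organ, made up the next clusters in order of the drop. Peaks covered 76.4% of a Vmn2r cluster on chromosome 7 (Vmn2r46 to Vmn2r52) in CC and 14.6% at 6 hpa. They covered a Vmn1r cluster on the same chromosome (Vmn1r66 to Vmn1r71) to 68.5% and 12.2%. The longest, with 65 Vmn1r genes over 3964 kb of chromosome 7, was covered to 71.6% and 22.6%. Clusters elsewhere had values of the same order, with 70.2% and 24.9% on chromosome 13 (Vmn1r188 to Vmn1r223) and 58.9% and 12.5% on chromosome 17 (Vmn2r90 to Vmn2r110). Over the 208 Vmn1r genes, mean gene-body cover was 49.3% in CC and 14.9% at 6 hpa, against 5.88% and 6.79% over all genes. Of these bodies 46 were called lost (0.788% over all genes), 20 kept (1.43%) and none gained (1.43%). The 119 Vmn2r genes had means of 40.1% and 8.35%, with 18 bodies lost and none kept or gained. Promoters gave 54 lost of 208 in the former family and 26 of 119 in the latter, against 1.18% over all promoters. Vmn1r114, Vmn1r148 and Vmn1r151 had the body and the promoter covered to 100% in CC with no peak in either at 6 hpa. The bodies of Vmn1r143 and Vmn1r64 were covered to 100% in both lists. With the CC list trimmed to equal covered length the difference was smaller, with 16 Vmn1r bodies lost and 5 gained, 2 Vmn2r bodies lost, and 28 Vmn1r and 9 Vmn2r promoters lost.

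Olfactory receptor genes were marked less in CC, and the outcome depended on how the lists were scaled. Of 34 Olfr clusters 20 lost coverage, a share close to the 59.1% of all 137 clusters, and none gained it (4.38%). Mean body cover over 1128 genes was 8.63% in CC and 3.8% at 6 hpa. With both lists restricted to −log10 q of 2 or more the means were 6.23% and 1.98%. The direction turned with the CC list alone trimmed to equal covered length, where the means were 3.02% and 3.8%. In CC, cover was highest in a chromosome 11 cluster (Olfr20 to Olfr412), at 58.6% and then 17.6%, whereas at 6 hpa it was highest on chromosome 7 (Olfr1344 to Olfr1350), at 24.4% after 35.5% in CC. Olfr1282 had its body covered to 100% in CC with no peak at 6 hpa, while Olfr1337 had none in CC and 95.7% at 6 hpa. Taar genes, receptors for trace amines in the nose, had no peak in any of 15 gene bodies in either list. Vomeronasal and olfactory receptor genes together were 6.99% of the protein-coding genes and 48.8% of the promoters called lost.

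The Obox and Zscan4 clusters, whose genes the oocyte or the 2-cell embryo uses, had the highest CC cover of the 137. The Zscan4 genes, which are expressed in a burst at the 2-cell stage and act on telomeres, lie in a 501.6 kb cluster on chromosome 7 with 90.6% cover in CC and 47.9% at 6 hpa. The drop was larger at the 5 protein-coding promoters of this family. Promoter cover went from 99.4% to 6.05% at Zscan4d, from 100% to 8.75% at Zscan4e and from 100% to 9.25% at Zscan4f. It went from 66.2% to 0% at Zscan4b and from 57.5% to 9.45% at Zscan4c. All 5 were called lost, and 3 were with the CC list trimmed to equal covered length. None of the 5 had a peak at the 2-cell stage, although cover at 14 hpa reached 41.4% at Zscan4f. The gene bodies had a mean cover of 87.9% in CC and 29.8% at 6 hpa.

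Obox genes, homeobox genes of the oocyte and early embryo, kept their promoters to a larger extent. All 7 promoters were covered to 100% in CC, and at 6 hpa they ranged from 34.1% at Obox5 to 100% at Obox1 and Obox2, with 5 called kept and none lost. Their cluster as a whole was covered to 92.3% and 43.4%. The oocyte Nlrp genes, which include the subcortical maternal complex gene Nlrp5 (also named Mater), had 2 promoters lost (1 with equal covered length), 4 kept and none gained among 11. Over all promoters the shares lost, kept and gained were 1.18%, 1.42% and 4.91%. Nlrp4b went from 100% to 4.20% and Nlrp14 from 77.9% to 0%. The kept ones included Nlrp2 at 100% and 100%, Nlrp4e at 100% and 98.5% and Nlrp5 at 100% and 59.2%. Usp17l genes, deubiquitinase genes of the 2-cell stage, had a mean promoter cover of 57.2% and 21.9% over 5 genes, and the promoter of Usp17lc was lost. Their bodies had 72.3% and 65.4%, with 3 kept and none lost, and were higher at 6 hpa with −log10 q of 2 or more (62.8% and 64.2%) and with equal covered length (54.5% and 65.4%). In the wider list of 27 autosomal 2-cell genes, which includes the Zscan4 and Usp17l genes, 7 promoters were lost, 3 kept and 1 gained, and mean cover was 54% and 26.1%. Of the bodies in this list 10 were kept and 2 lost (4 with −log10 q of 2 or more), against 1.43% and 0.788% over all genes. The kept promoters were Duxf3, Gm16513 and Sp110, each at 100% in both lists. The gained promoter was Prmt8, a methyltransferase gene, with 0% in CC and 86.0% at 6 hpa.

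Clusters of liver and defence genes ranged from large drops to little cover in either list. Among the latter were the Serpina cluster of protease inhibitors (5.23% and 4.42%), the Ugt2 cluster of glucuronosyltransferases (6.00% and 3.59%), the Ig kappa variable segments (8.06% and 5.01%), the Ifi200 cluster (6.45% and 3.91%) and a Gbp cluster on chromosome 5 (4.21% and 3.77%). Mup genes, which encode the major urinary proteins, had a mean promoter cover of 53.3% in CC and 3.14% at 6 hpa. Of their 22 promoters 9 were lost (3 with equal covered length), against 1.18% over all promoters, and none was kept or gained. Promoters of Mup1, Mup7, Mup11, Mup17 and Mup19 were covered to 100% in CC and had no peak at 6 hpa. At 14 hpa the family mean was 33.9%, and Mup19 was at 100%. Cyp3a genes, cytochromes that oxidise drugs and steroids, were covered to 88.2% over their chromosome 5 cluster in CC and to 40.9% at 6 hpa. Their promoter calls were 1 lost (2 with −log10 q of 2 or more) and 4 kept. The lost one was Cyp3a59 (59.2% and 0%), and the kept ones included Cyp3a41a (100% and 88.7%). Over all promoters 1.18% were lost, 1.42% kept and 4.91% gained. Skint genes of epidermal T cell selection had a mean body cover of 29.9% and 5.43%, and Skint5 alone had 196.9 kb less under peaks. Alpha-defensins of the gut divided within 1 cluster on chromosome 8, where the body of Defa21 had 90.7% and 0% and that of Defa29 100% and 99.3%. Over 64 defensin genes mean body cover was 26.4% and 12.9%, and 20.9% and 6.96% with −log10 q of 2 or more. The direction turned with equal covered length, at 8.64% and 12.9%. The variable segments of the immunoglobulin heavy chain on chromosome 12 had 68 of 113 bodies kept, 14 lost and 3 gained. Over all genes 1.43% of bodies were kept, 0.788% lost and 1.43% gained. With −log10 q of 2 or more 31 segment bodies were lost, and with equal covered length 11 were gained. Mean body cover of the segments was 79.2% and 57.7%, and that of the whole cluster, with the sequence between segments, 61.6% and 19.9%.

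Zinc finger genes, many of which encode KRAB repressors that direct SETDB1 to transposable elements, were divided as well. Of 23 Zfp clusters, 14 lost coverage and 2 gained it, against 59.1% and 4.38% of all 137 clusters, so the losing share was close to that of all clusters. Mean body cover over 385 genes was 16.9% in CC and 9.17% at 6 hpa, with 8 bodies lost (0.788% over all genes) and 10 kept (1.43%). With −log10 q of 2 or more 14 bodies were lost, and with equal covered length 153 bodies were lower and 146 higher. Zfp promoters had the opposite direction, with means of 5.92% and 7.88%, 71 higher and 34 lower, and 4 lost, 6 gained and 14 kept. Over all promoters 1.18% were lost, 4.91% gained and 1.42% kept. The body of Zfp977 on chromosome 7 went from 94.0% to 14.7%, and that of Zfp97 on chromosome 17 from 84.1% to 18.4%. A chromosome 4 cluster (Zfp990 to Zfp933) had 72.3% and 46.7%, with Zfp981 covered to 100% and 93.8% and Zfp992 to 93.0% and 89.5%. The lost bodies of highest CC fold included Zfp606 (54.1% and 8.86%, fold 3.94) and Zfp937 (50.1% and 9.19%, fold 3.78). Bglap3, an osteocalcin-related gene, was another lost body of high fold, with other values later on. It had 66.8% cover in CC and 6.86% at 6 hpa, whereas both the 14 hpa and 2-cell lists covered 100% of it and the PN5 list 83.6%.

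Gains were found at the regulators of body plan and organ formation. The 4 Hox clusters, whose transcription factors set position along the body axis, had the largest rises of all 137. Hoxa had 6.94% cover in CC and 44.6% at 6 hpa, Hoxd 5.05% and 26%, Hoxc 0.439% and 21.3%, and Hoxb 5.94% and 24.2%. At 14 hpa the same clusters stood at 12.7%, 3.67%, 4.21% and 11%, and at the 2-cell stage at 21.4%, 15.1%, 6.23% and 22.9%. Of 39 Hox promoters, 19 were gained (4.91% over all promoters), 3 kept (1.42%) and none lost (1.18%). The median promoter cover was 0% in CC and 62.6% at 6 hpa, against 0% in both lists over all genes. Hoxb7, Hoxb9, Hoxd9 and Hoxd13 promoters had no CC peak and were covered to 100% at 6 hpa. Hoxa6 (58.1% and 63.8%) and Hoxb5 (59.4% and 91.1%) already carried a CC peak. The other gaining clusters were 2 Zfp groups on chromosome 7, Zfp628 to Zfp580 (6.23% and 14.8%) and Zfp180 to Zfp526 (10.4% and 17.9%). Gained bodies were also called in families of short genes (1.43% over all genes, against 0.788% lost). T cell receptor variable segments had 23 of 136 gained and 8 lost (1 lost with equal covered length), while their chromosome 14 cluster was called losing (20.7% and 12.3%). Keratin-associated protein genes of the hair had 9 of 57 gained, while their chromosome 16 cluster was called losing (18.3% and 8.75%). Replication-dependent histone genes had 10 of 67 bodies gained and none of their promoters.

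The list of 97 patterning transcription factor genes outside the Hox clusters had 52 promoters gained (4.91% over all promoters), 2 kept (1.42%) and none lost (1.18%). Their mean promoter cover was 6.20% in CC and 61.7% at 6 hpa. Over all genes the means were 4.39% and 10.8%. En1 (midbrain and limb), Otx1 (forebrain), Pax9 (pharyngeal pouches), Six2 (kidney) and Irx1 had no CC peak at the promoter and 100% cover at 6 hpa. Zic1, a cerebellar regulator, and Dlx2 were the 2 with less cover at 6 hpa, and Zic1 had 65.5% in CC and 58.7% at 6 hpa. The gained bodies of highest 6 hpa fold included Olig2 (0% and 77.6%, fold 3.72) and Olig1 (0% and 63.3%, fold 3.6), regulators of oligodendrocyte and motor neuron fate, Gsx2 (0% and 63.2%, fold 3.55) and Pou4f3 (0% and 52.8%, fold 3.63). The longest runs of gained windows included 18 kb at Pax7, a muscle stem cell gene, covered to 0% in CC and 79.96% at 6 hpa, and 15 kb at Lhx5, a forebrain gene, covered to 3.10% and 76.7%. When both lists were restricted to peaks with −log10 q of 2 or more, 52 patterning and 18 Hox promoters were gained, and with equal covered length 62 and 23 were. Under each of these settings 1 patterning and 1 Hox promoter was kept. With −log10 q of 2 or more 1 Hox promoter was lost, and no patterning promoter was.

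Secreted ligands that the same tissues use showed the pattern at promoters more than in bodies. Of 61 genes for Wnt, Fgf, Bmp and Hedgehog ligands and related factors, 22 promoters were gained (4.91% over all promoters), 1 kept (1.42%) and none lost (1.18%). Mean promoter cover was 1.5% and 38.4%. Mean body cover was 1.27% and 14.6%. Promoters of Wnt5a, Gdf6 and Gdf7 went from 0% to 100%, that of Bmp2 from 0% to 96.1% and that of Shh from 0% to 50.3%. The kept one was Wnt1, at 55.4% and 56.9%. Among 38 pluripotency and trophectoderm genes 10 promoters were gained (4.91% over all promoters) and none lost or kept. Sox2 went from 0% to 97.3%, Prdm14 from 0% to 100%, Lin28a from 0% to 87.4%, Klf4 from 0% to 68.3% and Eomes from 0% to 63.8%. Cdx2, with 0% and 49.0%, did not reach the call. Hox, patterning, ligand and pluripotency genes together were 1.08% of the protein-coding genes and 9.60% of the gained promoters, so most gained promoters belonged to other genes. The 10 of highest fold included Ppp1r1a (0% and 55.5%, fold 4.57), which encodes an inhibitor of protein phosphatase, Hs3st2 (0% and 63.8%, fold 4.51), which encodes a heparan sulfate sulfotransferase, and Dchs1 (0% and 50.5%, fold 4.10), which encodes a giant cadherin of planar polarity.

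**Figure D2:**
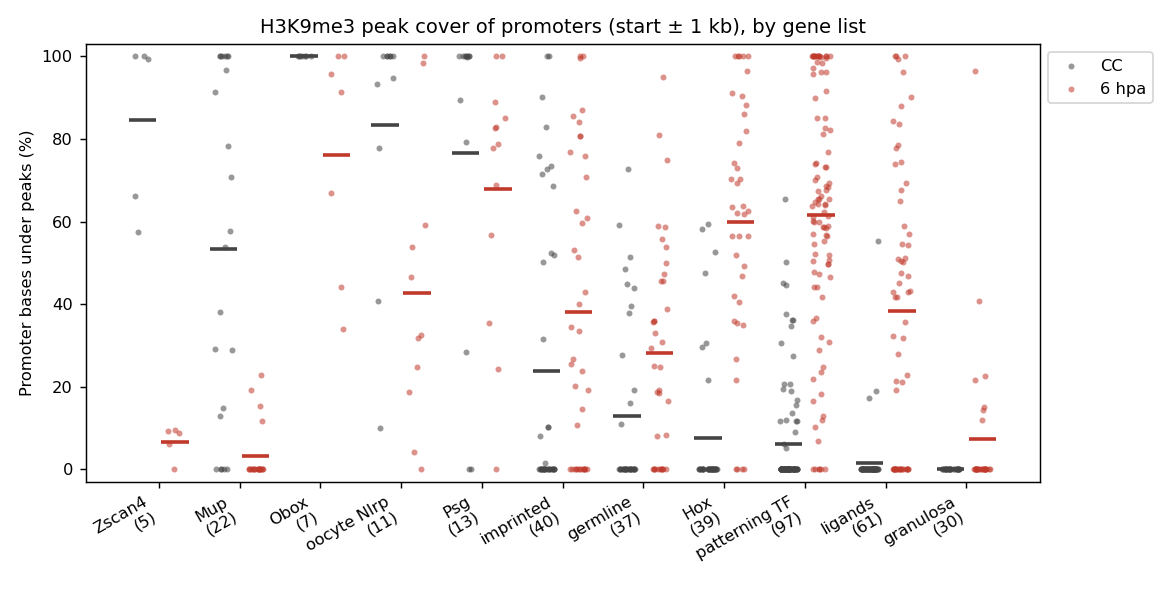
Each point is a gene, placed by the share of its promoter bases under peaks (y axis, %) in CC (grey) and at 6 hpa (red), with the number of genes of each list in parentheses and a horizontal bar at the mean. The mean lies higher in CC for Zscan4 (84.6% and 6.70%) and Mup promoters (53.3% and 3.14%), higher at 6 hpa for Hox (7.68% and 59.95%) and patterning promoters (6.20% and 61.7%), and high in both lists for Obox (100% and 76.0%) and Psg promoters (76.7% and 67.8%).

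Kept calls were the most frequent calls among germline and imprinted promoters, but more promoters of both lists had higher than lower cover at 6 hpa. Mean germline promoter cover was 12.8% in CC and 28.2% at 6 hpa, with 21 higher and 5 lower. Mean imprinted promoter cover was 23.8% and 38.0%, with 21 higher and 6 lower. Over all promoters the means were 4.39% and 10.8%, with 6086 higher and 1454 lower. At the share over all promoters, lists of this length would hold few lost ones, so their absence is not read as a result. Of 37 germline genes 3 promoters were kept (1.42% over all promoters), 1 gained (4.91%) and none lost (1.18%). Dazl, an RNA-binding protein of germ cells, had 72.8% in CC and 58.8% at 6 hpa, the Piwi-pathway gene Tdrkh 59.3% and 55.8%, and Piwil1 51.5% and 95%. The gained one was Slc25a31, the testis form of the ADP/ATP carrier (0% and 53.7%). Of 40 imprinted genes 11 promoters were kept (1.42% over all promoters), 4 gained (4.91%) and none lost (1.18%). Peg3 had 90.2% and 84.1%, Peg10 73.6% and 85.6% and Sgce 68.6% and 80.6%, and all of them are expressed from the paternal allele. The gained ones were Dlk1 (0% and 80.7%), Igf2r (7.95% and 76.0%), Kcnq1ot1 (0% and 62.6%) and Sall3 (0% and 100%). The largest drop was at Sfmbt2 (72.8% and 19.3%), whose promoter had no peak at 14 hpa, the 2-cell stage or PN5. The lists do not separate the parental alleles.

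Genes used by the donor cell were followed at their promoters. None of 30 cumulus and granulosa promoters had a CC peak, 7 had some 6 hpa cover and 1 was gained, at a mean of 0% and 7.42%. Over all promoters 9.92% had some CC cover, 32.8% some 6 hpa cover and 4.91% were gained, at means of 4.39% and 10.8%. With −log10 q of 2 or more, 3 of the 30 had 6 hpa cover. The gained promoter of the 30 was Inhbb, the inhibin beta B subunit (0% and 96.4%), followed by Lhcgr, the luteinising hormone receptor (0% and 40.6%). The Lhcgr promoter was covered to 94.9% in the 14 hpa list and to 100% in the 2-cell and PN5 lists. Cyp11a1, the cholesterol side-chain cleavage enzyme, had 0% and 21.5%. Expression was not measured in these lists. Among 23 autosomal genes of H3K9 methylation, 6 promoters had more cover at 6 hpa, against 6086 of 20807 over all genes, and none passed a call. With −log10 q of 2 or more, 1 of the 23 had more cover, and the mean at 6 hpa was 0.411% in place of 4.53%. Ehmt2 had, in the lists as deposited, 0% and 32.3% and Suv39h2 at 0% and 27%. The gene body of Wwp2, a ubiquitin ligase gene, had 1.01% cover in CC and 1.29% at 6 hpa, with no peak at its promoter in either. The study displays this locus at 6 hpa in control and Suv39h2-knockdown embryos, profiled by another assay (CUT&RUN), so the values are not comparable.

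The gains were centred just inside the gene start and increased with CpG number. Genes were divided into 3 equal groups by the CpG count of the promoter. In the group with the most CpG (61 to 172), 6 hpa peaks covered 30% of the bases in the 200-base bin after the start. The highest value, 32.4%, lay in the bin 300 bases downstream, whereas CC cover at the start was 1.33%. In the group with the fewest (0 to 19), CC cover at the start was 10.4% and 6 hpa cover 8.68%. The counts of calls followed, with 631, 323 and 67 promoters gained and 3, 4 and 239 lost from the highest to the lowest group. Of the 1021 genes with a gained promoter, 135 also had a gained body, and the median body cover of all 1021 at 6 hpa was 12.9%.

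**Figure D3:**
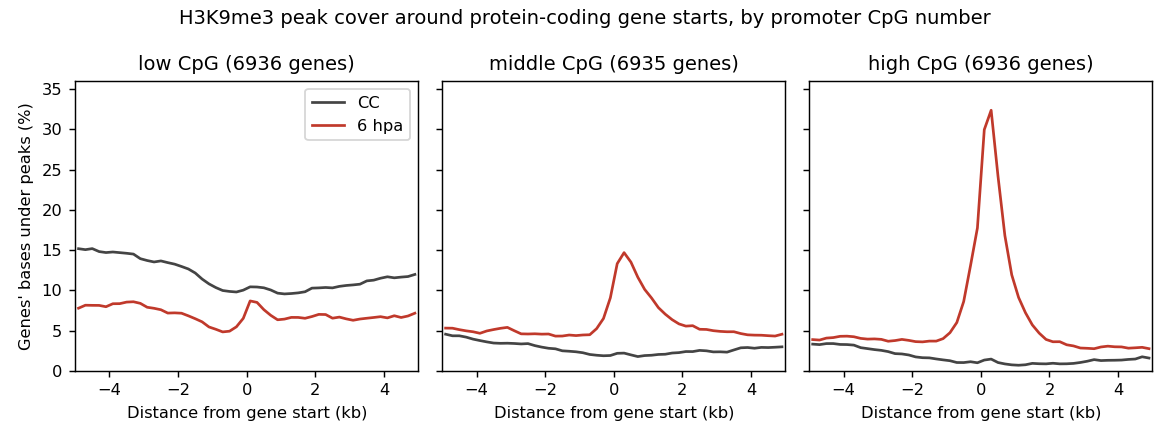
The share of the genes' bases under peaks (y axis, %) is drawn in bins of 200 bases against distance from the annotated start (x axis, kb) for CC (grey) and 6 hpa (red), in 3 groups of autosomal protein-coding genes by promoter CpG count. At 6 hpa a summit of 32.4% stands 300 bases after the start of high-CpG genes, while low-CpG genes have more CC cover than 6 hpa cover across the plot.

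Several long neuronal genes had less cover along the body and more at the start. In covered bases, the largest drops were in Gpc5 (359.6 kb and 115.3 kb), which encodes a glypican, Agbl1 (305.5 kb and 81.7 kb) and Unc5d (309.2 kb and 89.5 kb), which encodes a netrin receptor. Tmem132d was covered over 629.7 kb and 455.7 kb of its body, 96.7% and 69.96%, but its promoter had no CC peak and 99.2% cover at 6 hpa. The promoter of Unc5d likewise had 0% and 65.2%. That of Csmd1 had 0% and 44.6%, with 266.2 kb and 99.2 kb of the body under peaks. Over 84 long adhesion and synapse genes, 67 bodies were lower and 17 higher at 6 hpa. With −log10 q of 2 or more 71 were lower and 13 higher, but with equal covered length 24 were lower and 60 higher. Their promoters did not turn in this way, with 12 gained (4.91% over all promoters) and none lost in the lists as deposited and 15 gained with equal length. The largest rises in covered bases included Camta1 (63.8 kb and 141.4 kb), Rbfox3, the neuronal splicing factor known as NeuN (27.9 kb and 93.8 kb), and Dnah8, an axonemal dynein (54.4 kb and 112.1 kb).

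Along the genome, 197662 windows were marked in CC, of which 125849 were not marked at 6 hpa (63.7%; 63.5 to 63.9%) and 71813 were kept (36.3%). Another 46813 windows were gained, 2.07% of those without a CC mark. Of the lost windows 61.1% had no 6 hpa cover, and of the gained ones 63.95% had no CC cover. The others had some cover in the list where they were unmarked. Kept windows had a median fold of 3.13 in CC and 3.03 at 6 hpa, and lost ones 2.84 in CC. Loss was more frequent at weak and narrow marks. In 4 equal groups of rising CC fold, 18.5%, 28.8%, 41.0% and 57.0% of windows were kept. Median GC went from 41.3% to 44.7% over the same groups. Of single marked windows 22.5% were kept, and of those in runs of 10 or more 52.7% were. The share of CC peaks with no overlapping 6 hpa peak was 52.6% over all widths, 73.1% under 500 bp and 1.92% at 5 kb and over. A wide peak is more likely to meet some 6 hpa peak by its length alone, so covered bases compare better. Of the bases in CC peaks under 500 bp 21.2% lay under a 6 hpa peak, and of those in CC peaks of at least 5 kb 52.0% did.

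GC content moved with the kept and gained shares. The kept share of CC windows was 2.07% at a GC content under 35%, 29.5% between 40 and 45%, and 97.1% at 55% or more, and the gained share of the other windows went from 0.0328% to 15.2% over the same bins. Within each of the 59 clusters of high CC cover, lost windows had a lower median GC than kept ones. Over these clusters, which share the same pooled lists and differ in length and repeat content, GC and the ratio of 6 hpa to CC cover correlated with a Spearman rho of 0.685 and a Pearson r of 0.731 (n = 59 clusters). The 247 1-Mb bins of at least 20% CC cover had a rho of 0.851 and an r of 0.862, and in both sets CC cover was used for the selection and is the denominator of the ratio. The part of GC content in these differences was not tested.

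**Figure D4:**
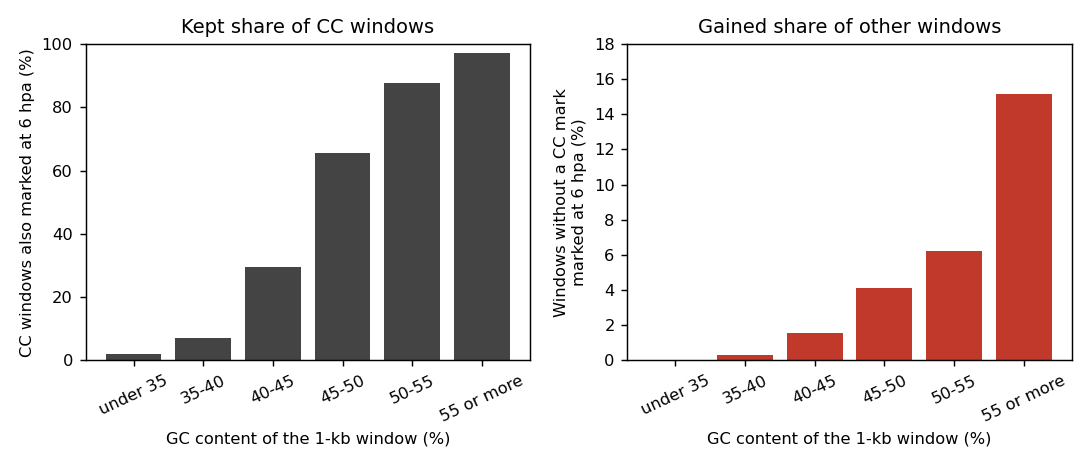
Bars give, for 1-kb windows grouped by GC content (x axis, %), the share of CC windows also marked at 6 hpa (left, y axis in %) and the share of windows without a CC mark that were marked at 6 hpa (right, y axis in %). The kept share climbs from 2.07% to 97.1% and the gained share from 0.0328% to 15.2%.

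Lost windows held more repeat sequence than kept or gained ones. Soft-masked repeats made up 61.3% of their bases, against 54.8% in kept, 36.3% in gained and 33.5% in all windows, and 0.807%, 0.893% and 6.09% of the 3 classes lay within 1 kb of a gene start. The midpoint lay in an exon in 7.64% of gained and 1.78% of lost windows. Of the gained windows 28.0% bordered a window marked in CC, against 5.81% of windows without a mark in either list, and the median distance to a CC window was 5 kb. Among 1789 unprocessed pseudogenes, which are left over from gene duplication, 30.9% of promoters were marked in CC and 14.2% at 6 hpa. Protein-coding promoters went the other way, with 3.75% and 7.17% marked.

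With gaps of 1 window allowed, the longest run of lost windows spanned 80 kb at Sult2a1, a hydroxysteroid sulfotransferase gene on chromosome 7, where CC peaks covered 90.7%, 6 hpa peaks 9.22%, 14 hpa peaks 37.4% and 2-cell peaks 7.42%. The next lay over Vmn1r159 and Vmn1r160 (68 kb), Vmn1r205 and Vmn1r206 (65 kb) and Ceacam11 (60 kb). The longest kept run spanned 292 kb at Ajap1 on chromosome 4, which encodes an adherens junction protein, where CC peaks covered 99.8%, 6 hpa peaks 95.5%, 14 hpa peaks 92.5% and 2-cell peaks 84.2%. All 5 longest kept runs were on chromosome 4, and 1 of them lay over Zfp992 and Zfp981. By chromosome, the ratio of 6 hpa to CC cover was lowest on chromosome 14 (0.515) and chromosome 7 (0.518), which had the highest CC cover (21.7%), and highest on chromosome 11 (0.833).

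Positions were then followed in the other lists, whose peaks covered 8.63% (14 hpa), 5.12% (2-cell) and 5.39% (PN5) of the assembled autosomal sequence. Of the windows lost by 6 hpa, 40.4% (40.2 to 40.7%) were marked in the 14 hpa list, 13.8% in the 2-cell list and 9.33% in the PN5 list. Of the kept ones the shares were 83.0%, 61.8% and 34.4%, and of the gained ones 37.6%, 30.1% and 19.8%. Windows without a mark in CC or at 6 hpa gave 3.10%, 1.64% and 3.25%. Of the promoters gained by 6 hpa, 5.88% were covered to at least 50% in the 14 hpa list, 5.58% in the 2-cell list and 8.03% in the PN5 list, against 3.31%, 1.94% and 3.65% of all promoters. Of the lost promoters 21.5% were at 14 hpa. The Hox and patterning lists had mean promoter cover of 9.67% and 7.41% at 14 hpa, and the Mup genes 33.9%. Adjacent windows are not independent, so these intervals, which reflect counting alone, are too narrow. The PN5 list comes from another strain cross and another study, which cannot be told apart from the type of embryo.

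**Figure D5:**
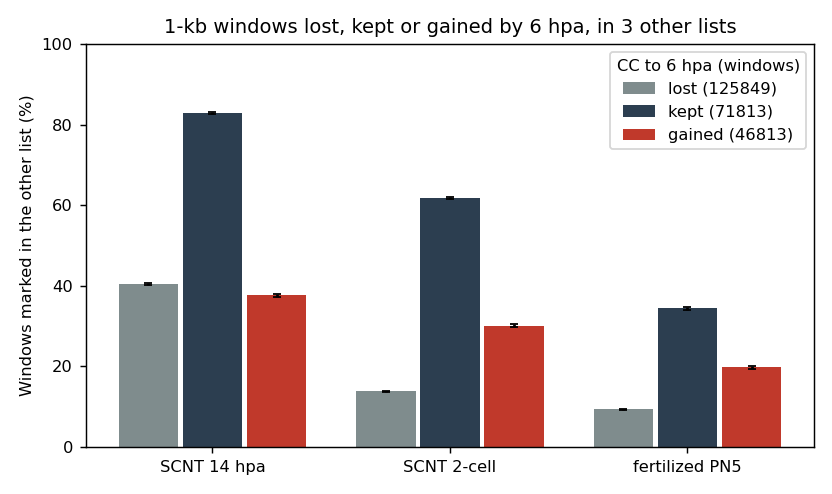
Bars give the share of 1-kb windows marked (y axis, %) at SCNT 14 hpa, the SCNT 2-cell stage and fertilized PN5 for windows lost, kept or gained between CC and 6 hpa, with Wilson 95% intervals as error bars. Kept windows have the highest share in every list (83.0%, 61.8% and 34.4%), and lost windows have the lowest share at the 2-cell stage and in PN5.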

How the data were processed

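H3K9me3 was profiled in 4 CC and 5 NT-6h precipitated libraries with matched inputs. The authors trimmed reads with cutadapt 1.16, aligned them to mm10 with BWA, merged replicates with SAMtools, removed duplicates and drew the same number of reads per group with Picard, and called broad peaks with MACS2 over input, so that the deposited values are a fold enrichment (ratio) and a −log10 q for each peak of a pooled list. The MACS2 version and threshold are not given in the sources used here. Equal read numbers per group do not make library complexity equal, which bears on how many weak peaks are called.

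Peak cover was computed with Python 3.11.15, NumPy 2.4.6, pandas 2.3.3 and SciPy 1.17.1 over GENCODE M21 (GRCm38.p6) protein-coding gene bodies, promoters, family clusters and 1-kb windows marked at 50% cover, on autosomes. The code recovered every planted region of simulated lists. Shares carry Wilson 95% intervals, which cover counting error only. Alternatives were other window and call thresholds, peaks of −log10 q of at least 2, CC peaks trimmed to equal covered length, every gene biotype, 500-base promoters and 200 kb cluster gaps. Named genes were the 10 with the largest drop and rise in covered bases, the 10 of highest fold in each called class, members of short lists, the extremes of longer lists, the extreme clusters and the 5 longest runs; other list members were chosen after their values were seen. The members and lists were chosen with earlier results of these data known. Chromosomes X and Y and the other lists were not analysed here beyond the values given.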

Additional observations from a re-analysis of the deposited data

Results flagged for a closer look

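Peaks on the sex chromosomes lay outside the autosomal comparison. On chromosome X the CC list held 25563 peaks and the 6 hpa list 20798. On chromosome Y, which cells from females lack, the CC list held 360 peaks and the 6 hpa list 302. The source of the reads under the Y peaks was not tested.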

How the results depend on the processing

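No paired analysis was possible because each group has 1 pooled list, from which single replicates cannot be dropped either. When lists were restricted to −log10 q of 2 or more, the ratio of covered bases was 0.562. With CC trimmed to equal covered length it was 1.0 by construction, and 73572 windows, 67 gene bodies, 115 promoters and 50 clusters were lost. Windows marked at 25% cover gave 76158 gained and 119279 kept, and at 75% cover 26609 and 45082. Calls at 40% and 20% gave 395 bodies lost, 491 gained, 377 promoters lost and 1604 gained, and calls at 75% and 0% gave 52, 91, 98 and 308. Genes of every biotype gave 1078 bodies lost and 1357 gained. Promoters of 500 bases each side gave 1717 gained. The other counts over all windows, genes or clusters stayed within 1.5 times of the values reported. Counts within single families moved more, down to 2 from 18 for Vmn2r bodies lost with equal covered length and up to 31 from 14 for Ig heavy chain segments lost with the stricter q. Read depth behind each peak and the spread between replicates are unknown, so differences near the caller's threshold cannot be ranked.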
